A study of Mus musculus with 6 samples.

Results

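The transcripts described here are those of 10 genes that mark or maintain stem cells at the base of intestinal crypts: Lgr4, Lgr5, Ascl2, Olfm4, Smoc2, Rgmb, Cdca7, Bmi1, Lrig1 and Hopx. They were chosen by name, by an exact match to the gene symbol, and each symbol had 1 row among the 29940 genes of the deposited table. Their RNA was read by sequencing in colon organoids, small bodies of epithelium that grow from crypts embedded in Matrigel, a gel of basement membrane proteins. The mice that gave the crypts, from the large intestine, were of the inbred strain C57BL/6J, with no genetic change named in the labels. All organoids were cultured for 2 days and then kept for a further 24 hours, either alone (Ctrl, 3 samples) or with TNFα, an inflammatory cytokine (TNF, 3 samples). The sources used here do not give the dose of TNFα, the age of the mice or whether crypts of several mice were pooled. The labels do not say whether replicates were separate cultures or separate mice, and p-values therefore describe the spread among these 6 samples, a part or all of which may be technical.

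In the intestinal crypt, Wnt signals and the R-spondins that amplify them keep stem cells dividing at the base. Lgr5 and its relative Lgr4 are R-spondin receptors, and the transcription factor Ascl2 is a Wnt target that holds cells in the Lgr5 stem cell state. Other genes of the set were described as markers of slowly dividing or reserve stem cells, among them Bmi1, Lrig1 and Hopx, although later work in mouse found several of them in many crypt cells. In mouse, Olfm4 is known as a marker of the crypt base in the small intestine and is little expressed in the colon.

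Sequence upstream of the genes with the largest rises, Olfm4 and Ascl2, is shown because these genes changed most. RefSeq windows on GRCm38.p6, from 250 bases before to 50 bases after a gene's start, were found for 8 of the 10 genes (11 windows); Lgr5 and Smoc2 had none. The Olfm4 sequence lies on chromosome 14 at chr14:80000052-80000260 on the plus strand, and the Ascl2 sequence on chromosome 7 at chr7:142969265-142969514 on the minus strand. Capitals mark a match to the κB consensus, the motif read by NF-κB. Both are written 5′ to 3′.
Olfm4: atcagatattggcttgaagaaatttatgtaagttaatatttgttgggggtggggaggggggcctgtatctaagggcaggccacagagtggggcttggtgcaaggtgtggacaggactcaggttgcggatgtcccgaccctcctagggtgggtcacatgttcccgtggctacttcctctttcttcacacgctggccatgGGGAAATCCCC
Ascl2: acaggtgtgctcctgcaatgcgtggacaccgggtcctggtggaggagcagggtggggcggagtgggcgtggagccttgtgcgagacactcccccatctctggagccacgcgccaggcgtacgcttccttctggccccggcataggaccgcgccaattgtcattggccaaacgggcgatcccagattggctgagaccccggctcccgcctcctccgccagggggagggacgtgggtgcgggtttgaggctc

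The capitals in the Olfm4 sequence cover 2 overlapping matches to the κB consensus, between 52 and 42 bases before the RefSeq start. Of all 32851 windows, 8.46% held this motif on either strand, and no other member's window did. The transcript that the deposited table lists for Olfm4 starts at position 80000251, 51 bases upstream of the RefSeq start, so the matches lie at the start of that transcript. The TCF motif CTTTGAT was in none of the 11 windows and in 3.73% of all windows. The E-box CAGCTG was in 1 Hopx window, after the start, and in 16.3% of all windows. The RBPJ motif TGGGAA was in the windows of Olfm4, Cdca7 and Bmi1 and in 25.6% of all windows. All motifs were searched on both strands, matches of different motifs did not overlap in these windows, and a match describes the letters and says nothing of binding.

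Levels are in FPKM, in which fragments are counted per kilobase of transcript and scaled to library size, which can be compared between genes. In Ctrl the highest mean levels were those of Lrig1 (46.9 FPKM), Smoc2 (46.5 FPKM) and Lgr5 (46.3 FPKM), whose ranges overlapped each other. Cdca7 and Lgr4 followed, overlapping each other, then Hopx, then Rgmb and Bmi1, which again overlapped. Ascl2 and Olfm4 were lowest and stood apart from their neighbours. In TNF the order changed: Lrig1 stood alone at the top, Hopx was above Lgr4, and Ascl2 reached the level of Rgmb, the only neighbours in that order whose ranges overlapped.

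After 24 hours with TNFα, Ascl2 and Olfm4 RNA was higher, while Lgr4, Lgr5, Smoc2, Rgmb, Cdca7 and Bmi1 RNA was lower and Lrig1 and Hopx RNA did not pass the test. The mean level of the lower genes fell by 11.4% to 29.6%, and the rises were 3.0-fold and 17.8-fold. All 10 genes were among the 12350 tested, whose values averaged 1 FPKM or more over all 6 libraries. TNF was compared with Ctrl by limma on log2(FPKM + 1), with Benjamini-Hochberg adjustment over these 12350 genes and a threshold of 0.05. By this test 2 members were higher, where 12.9% of all tested genes were, and 6 were lower, where 11.1% were; in either direction 24.0% of tested genes were called. The 3 TNF values lay wholly to 1 side of the 3 Ctrl values in 8 members, as in 41.4% of all tested genes. Olfm4 is among both the 2 higher and these 8 members. It passed the filter only through its TNF libraries, so it had to differ to be tested. The median change of the 10 genes was -0.21 on the log2 scale, beside -0.0010 over all tested genes. Leaving out any 1 library kept 2 members higher and left 5 lower, Bmi1 being lost each time, while leaving out Ctrl 1 took the lower genes among all tested from 1374 to 910. Organoids are mixtures of cells measured in bulk, so fewer cells of a type and less RNA per cell cannot be told apart.

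**Figure D1:**
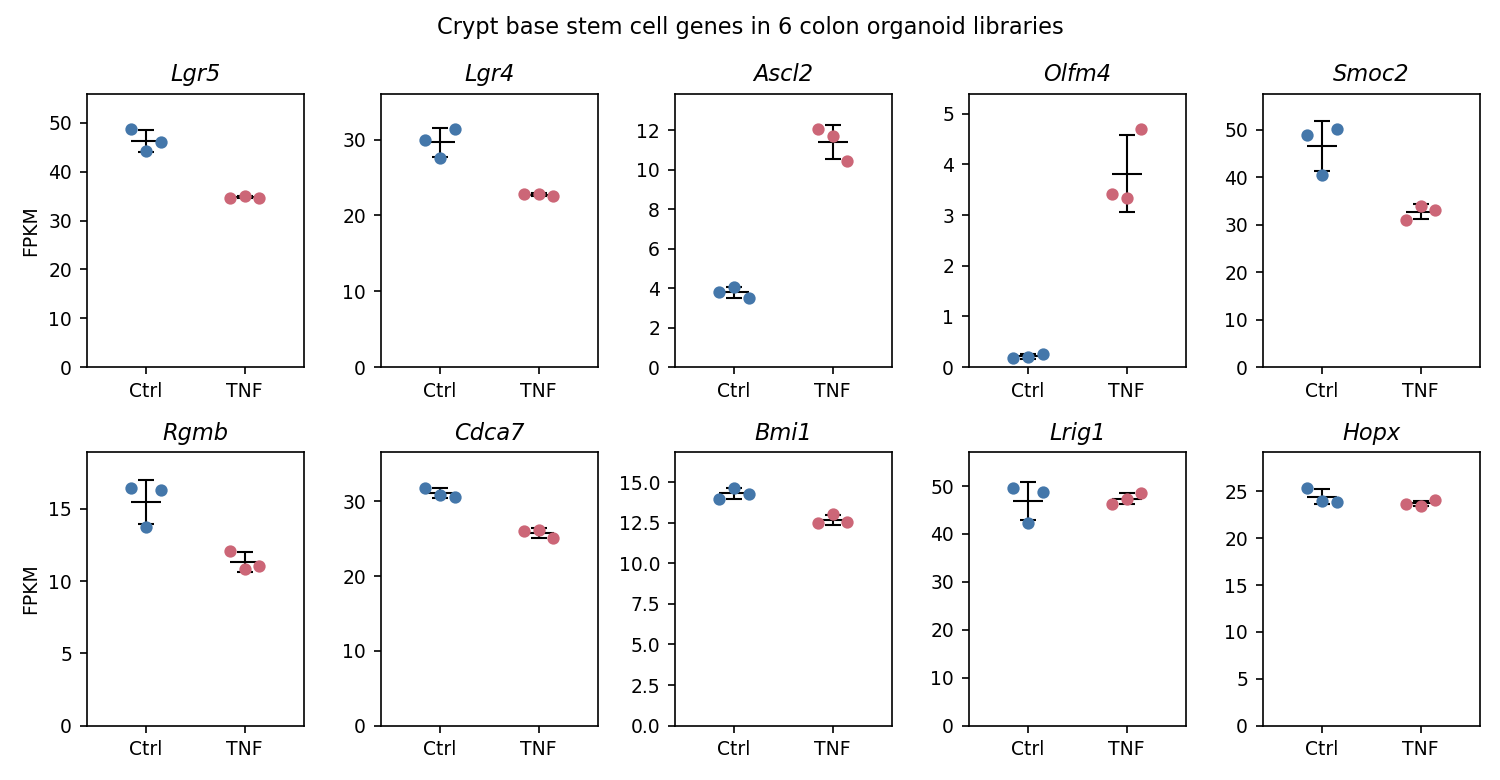
Level of each crypt base stem cell gene in FPKM (vertical axis, from 0, its own scale in each panel) in the 3 Ctrl and 3 TNF libraries. Points are libraries, the long bar is the mean and the short bars are 1 SD. The groups are apart in 8 panels and overlap for Lrig1 and Hopx.

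The R-spondin receptors fell together. Lgr5 (ENSMUSG00000020140, chromosome 10, 115450311 to 115587780, minus strand, GRCm38) was at 48.7, 44.2 and 46.0 FPKM in Ctrl 1, 2 and 3 and at 34.7, 35.02 and 34.6 FPKM in TNF 1, 2 and 3. The groups did not overlap, and the TNF libraries were closely alike. The mean was 46.3 ± 2.28 FPKM in Ctrl and 34.8 ± 0.218 FPKM in TNF (SD, n = 3 per group, here and for later means), a log2 change of -0.40 (SE 0.045, 95% interval -0.51 to -0.30, limma adjusted p = 0.000638). Lgr4 (ENSMUSG00000050199, chromosome 2, 109917647 to 110014257, plus strand) was at 29.9, 27.6 and 31.4 FPKM in Ctrl and at 22.8, 22.9 and 22.5 FPKM in TNF. It too was lower in every TNF library than in any Ctrl library, with a log2 change of -0.37 (SE 0.052, 95% interval -0.49 to -0.25, limma adjusted p = 0.00195). The mean level of Lgr5 fell by 24.9% and that of Lgr4 fell by 23.3%.

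The ratio of Lgr5 to Lgr4 within a library was 1.63, 1.6 and 1.47 in Ctrl and 1.52, 1.53 and 1.54 in TNF. These ranges overlapped, with a log2 difference of -0.031 (exact two-sided permutation p = 0.5, 0.5 after adjustment over the 3 ratios computed). With 3 against 3 samples this exact test cannot go below 0.1.

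Ascl2, the transcription factor of the Lgr5 stem cell state, went the other way. Ascl2 (ENSMUSG00000009248, chromosome 7, 142966829 to 142969264, minus strand) was at 3.81, 4.07 and 3.52 FPKM in Ctrl and at 12.1, 11.7 and 10.4 FPKM in TNF. The lowest TNF library was well above the highest Ctrl library. The mean rose from 3.80 ± 0.278 to 11.4 ± 0.861 FPKM, with a log2 change of 1.37 (SE 0.070, 95% interval 1.21 to 1.53, limma adjusted p = 1.48e-05). By size of change it ranked 94 of the 12350 tested genes. Its levels stand for about 170 to 194 reads in Ctrl and 544 to 563 reads in TNF. Counted as fragments, as described below for Olfm4, these numbers would be lower by a factor of 2.0. The ratio of Ascl2 to Lgr5 was 0.0783, 0.0922 and 0.0764 in Ctrl and 0.347, 0.335 and 0.301 in TNF. The groups were apart, with a log2 difference of 2.00 (exact two-sided permutation p = 0.1, the smallest possible, adjusted 0.15).

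**Figure D2:**
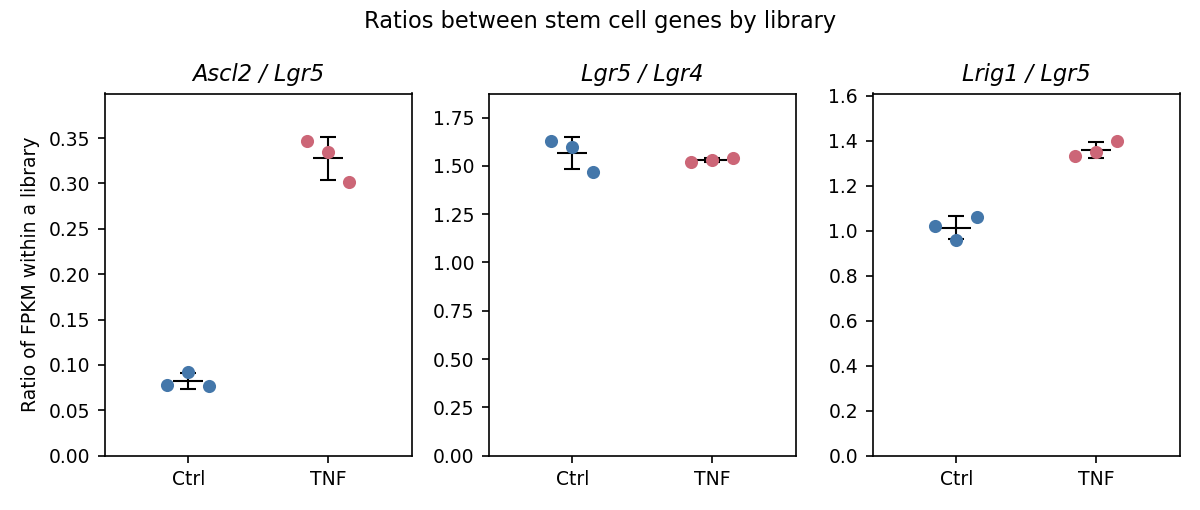
Ratio of FPKM values within each library (vertical axis, no unit, from 0) for Ascl2 to Lgr5, Lgr5 to Lgr4 and Lrig1 to Lgr5 in the 3 Ctrl and 3 TNF libraries. Points are libraries, with the mean and 1 SD. The ratio of Ascl2 to Lgr5 is 0.0764 to 0.0922 in Ctrl and 0.301 to 0.347 in TNF, while that of Lgr5 to Lgr4 overlaps between the groups.

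Olfm4, a secreted glycoprotein of the olfactomedin family, was barely detected in Ctrl. Olfm4 (ENSMUSG00000022026, chromosome 14, 79984081 to 80023139, plus strand) was at 0.177, 0.205 and 0.263 FPKM in Ctrl and at 3.42, 3.34 and 4.69 FPKM in TNF. All TNF libraries were far above Ctrl, and TNF 3 was the highest of them. These values stand for about 15, 17 and 22 reads in Ctrl and 269, 277 and 423 reads in TNF. The unit taken as 1 read was the smaller of a pair of common low values, and with the larger, 2.0 times as high, as 1 fragment, Olfm4 rested on 8, 8 and 11 fragments in Ctrl and 135, 139 and 212 in TNF. The mean was 0.215 ± 0.0440 FPKM in Ctrl and 3.82 ± 0.758 FPKM in TNF, with a log2 change of 1.98 (SE 0.12, 95% interval 1.70 to 2.25, limma adjusted p = 3.43e-05). The scale of log2(FPKM + 1) understates the change of so low a gene: with pseudocounts of 0.1 and 5 the log2 change was 3.63 and 0.754. Olfm4 passed the filter on low values only through its TNF libraries, so it had to differ to be tested, while the other 9 genes passed on their Ctrl mean alone. Counted over all annotated transcripts of Olfm4, 153 exonic bases overlap the long noncoding RNA gene Gm6999 on the same strand. How many of them lie in the transcript that the deposited table lists was not determined.

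RNA of Smoc2 and Rgmb, genes of a secreted and a surface protein, had the largest falls of the set. The place of Rgmb depended on the setting. With a pseudocount of 5 Lgr5 fell more than Rgmb (log2 change -0.366 against -0.328). Smoc2, a calcium-binding matricellular protein (ENSMUSG00000023886, chromosome 17, 14279506 to 14404790, plus strand), was at 48.9, 40.4 and 50.1 FPKM in Ctrl and at 31.0, 34.0 and 33.1 FPKM in TNF. Ctrl 2 was the lowest Ctrl library and was still above every TNF library. The mean fell from 46.5 ± 5.27 to 32.7 ± 1.55 FPKM, with a log2 change of -0.49 (SE 0.082, 95% interval -0.68 to -0.30, limma adjusted p = 0.00440). Smoc2 is also made by mesenchymal cells, and the summed level of 8 fibroblast and smooth muscle markers was 5.91 to 13.9 FPKM in Ctrl and 3.84 to 4.52 FPKM in TNF. Of 3 tested markers Col1a1 and Col3a1 fell, and Acta2 did not pass (limma adjusted p = 0.362). Among the untested ones Col1a2 and Dcn were lower in every TNF library, while Lum, Pdgfra and Myh11 overlapped between groups. None of the 8 markers was at 0 in all libraries. Their part in the fall of Smoc2 was not tested.

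Rgmb, a coreceptor for bone morphogenetic proteins that binds neogenin (ENSMUSG00000048027, chromosome 17, 15803188 to 15831039, minus strand), was at 16.5, 13.8 and 16.3 FPKM in Ctrl. In TNF it was at 12.1, 10.9 and 11.01 FPKM, below all Ctrl libraries. The mean fell from 15.5 ± 1.52 to 11.3 ± 0.663 FPKM, with a log2 change of -0.42 (SE 0.076, 95% interval -0.59 to -0.24, limma adjusted p = 0.00614).

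The chromatin protein genes of the set fell less. Cdca7, a zinc finger protein that recruits the remodelling enzyme HELLS (ENSMUSG00000055612, chromosome 2, 72476159 to 72486893, plus strand), was at 31.8, 30.9 and 30.6 FPKM in Ctrl and at 26.1, 26.2 and 25.1 FPKM in TNF. The spread within each group was small beside the gap between them. The log2 change was -0.26 (SE 0.040, 95% interval -0.35 to -0.17, limma adjusted p = 0.00274). Bmi1, a subunit of Polycomb repressive complex 1 (ENSMUSG00000026739, chromosome 2, 18677018 to 18686629, plus strand), was at 13.98, 14.7 and 14.3 FPKM in Ctrl and at 12.5, 13.0 and 12.5 FPKM in TNF. The lowest Ctrl library was above the highest TNF library by a narrow margin, and the log2 change was -0.16 (SE 0.043, 95% interval -0.26 to -0.064, limma adjusted p = 0.0288). Without any 1 library the limma adjusted p of Bmi1 was 0.0506 to 0.0875, so its call rested on all 6.

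Lrig1, a membrane protein that restrains ErbB receptors (ENSMUSG00000030029, chromosome 6, 94604529 to 94700158, minus strand), was at 49.7, 42.3 and 48.7 FPKM in Ctrl and at 46.2, 47.4 and 48.5 FPKM in TNF. Ctrl 2 was the lowest of all 6 libraries and Ctrl 1 the highest, so the groups overlapped. The log2 change was 0.017 (SE 0.063, limma adjusted p = 0.873), with a 95% interval of -0.13 to 0.16. Hopx, a small homeodomain protein that does not bind DNA (ENSMUSG00000059325, chromosome 5, 77086988 to 77115121, minus strand), was at 25.4, 24.0 and 23.9 FPKM in Ctrl and at 23.6, 23.5 and 24.1 FPKM in TNF. These ranges overlapped too, and the log2 change was -0.041 (SE 0.041, limma adjusted p = 0.519), with a 95% interval of -0.14 to 0.054. The intervals of Lrig1 and Hopx hold 0 and do not reach the estimated change of any called member.

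Some exonic bases of both genes are shared with neighbours, and the sources used here do not say whether the libraries kept strand. For Hopx 412 exonic bases, counted over all annotated transcripts and not only the listed ones, overlap the antisense gene Hopxos, at 0.588 to 1.21 FPKM. For Lrig1 144 bases, counted in the same way, overlap Slc25a26, at 0.602 to 1.04 FPKM. The other 7 genes, Olfm4 apart, overlap no annotated exon of another gene.

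Within a library, Lrig1 stood at 1.02, 0.958 and 1.06 times the level of Lgr5 in Ctrl and at 1.33, 1.35 and 1.40 times in TNF. The ratio was higher in every TNF library, with a log2 difference of 0.43 (exact two-sided permutation p = 0.1, the smallest possible, adjusted 0.15).

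**Figure D3:**
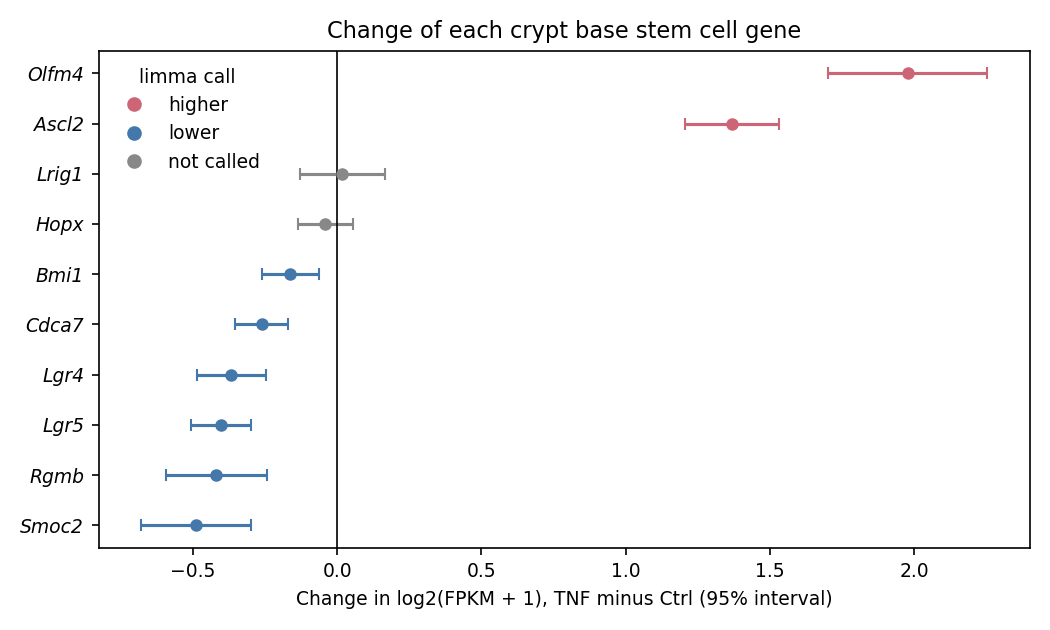
Change of each crypt base stem cell gene in log2(FPKM + 1), TNF minus Ctrl (horizontal axis), with its 95% interval from limma. Colours give the call at an adjusted p under 0.05. Olfm4 (1.98) and Ascl2 (1.37) are higher, 6 genes from Bmi1 (-0.16) to Smoc2 (-0.49) are lower, and the intervals of Lrig1 and Hopx cross 0.

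The genes varied unequally between libraries of a group. The coefficient of variation was larger in Ctrl than in TNF for 7 of the 10 genes; for Lgr5 it was 4.92% in Ctrl and 0.626% in TNF, for Lgr4 6.40% and 0.818%. Olfm4 varied most, by 20.5% and 19.9%. Ctrl 2 was the lowest Ctrl library for 5 genes and Ctrl 1 the highest for 5, without a library that was lowest for all.

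Across the 6 libraries, the genes with the profile most like that of Lgr5 were Hjurp (44.2 to 34.2 FPKM), Prps2 (19.8 to 15.1 FPKM) and Arrdc4 (26.1 to 20.1 FPKM), with root mean square log2 differences of 0.0302, 0.0329 and 0.0338. The median difference over the 10928 genes compared was 0.232. Nearest to Ascl2 were Cxcl16 (11.2 to 34.2 FPKM), Tubb4a (2.61 to 8.51 FPKM) and H2-Q7 (0.927 to 2.69 FPKM), at differences of 0.0730, 0.0761 and 0.0804 against a median of 0.815. H2-Q7 belongs to a family of close copies, whose reads may be shared. Nearest to Olfm4 were Icam1 (0.815 to 13.6 FPKM), Flt3l (0.580 to 9.53 FPKM) and Guca2b (6.28 to 63.4 FPKM), at 0.285, 0.317 and 0.326 against a median of 2.05. Like Olfm4 itself, Icam1, Flt3l and H2-Q7 reached the required mean of 1 FPKM only through their TNF libraries. These likenesses are descriptions over 6 libraries in 2 groups.

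The lists that follow are read beside all tested genes, of which 12.9% rose, 11.1% fell and the rest did not pass. Of 30 other markers and regulators of the Lgr5 stem cell programme 26 were tested, and 10 rose, 1 fell and 15 did not pass, with a median log2 change of 0.18. The largest rise was that of Scn2b, a sodium channel subunit, at 0.896, 0.871 and 0.731 FPKM in Ctrl and 6.10, 6.38 and 6.48 FPKM in TNF (log2 change 2.00, limma adjusted p = 2.35e-06). Scn2b passed the filter only through TNF. Tnfrsf19, a Wnt target of the TNF receptor family also known as Troy, was at 1.06, 1.07 and 1.51 FPKM in Ctrl and 4.88, 5.72 and 5.23 FPKM in TNF (log2 change 1.51, limma adjusted p = 4.49e-05). The adhesion receptor Cd44 rose from 31.3 ± 1.86 to 41.8 ± 2.59 FPKM, and the nuclear receptor Esrrg from 3.72 ± 0.288 to 5.47 ± 0.363 FPKM. Leaving out any 1 library gave 9 or 10 rises; without both Ctrl 1 and TNF 3 there were 5.

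Markers of enteric glia and neurons moved with Scn2b and Tnfrsf19. The summed level of 5 such markers was 3.23 to 5.19 FPKM in Ctrl and 15.6 to 17.6 FPKM in TNF. S100b, Gfap and Uchl1 rose, Elavl4 overlapped between groups, and Sox10, which defines glia, was at 0.0218 to 0.111 FPKM in Ctrl and 0.244 to 0.332 FPKM in TNF. None of the 5 was at 0 in all libraries, and their part in these rises was not tested.

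In the receptor module for R-spondins and Wnts, 12 of 19 genes were tested, and 3 fell, 1 rose and 8 did not pass, with a median log2 change of -0.10. The Wnt receptor Fzd7 fell from 5.55 ± 0.653 to 3.39 ± 0.246 FPKM, and its relative Fzd5 from 10.7 ± 0.551 to 8.58 ± 0.383 FPKM. Znrf3, a ubiquitin ligase that removes Wnt receptors and the gene of the stem cell programme that fell, went from 5.01 ± 0.445 to 4.04 ± 0.0178 FPKM; its call was lost when any library other than Ctrl 2 was left out (limma adjusted p 0.0640 to 0.0757). The coreceptor Lrp6 rose from 13.5 ± 0.715 to 15.4 ± 0.132 FPKM, a call lost without any library other than Ctrl 1 (limma adjusted p 0.0546 to 0.0884). Lgr6 and the R-spondin genes Rspo1 to Rspo4 had means of at most 0.117 FPKM in either group.

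Among 13 tested of 15 Wnt target genes, 2 rose (Tnfrsf19 and Cd44), 2 fell and 9 did not pass, with a median log2 change of -0.031. The cell cycle gene Ccnd1 fell from 26.9 ± 0.0560 to 23.1 ± 0.954 FPKM and Znrf3, described above with its limit, also fell. The widely used Wnt reporter gene Axin2 had a mean of 17.9 ± 2.08 FPKM without and 18.7 ± 0.608 FPKM with TNFα (limma adjusted p = 0.590). Sox9 was at 20.0 ± 1.94 and 18.5 ± 1.29 FPKM (limma adjusted p = 0.380). Without Znrf3, whose call needs all but Ctrl 2, the list had 1 fall.

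Of 10 tested among 12 Notch pathway genes, 2 fell, 1 rose and 7 did not pass, with a median log2 change of -0.056. Hes1, the repressor that Notch induces, fell from 19.5 ± 0.499 to 14.5 ± 1.68 FPKM, and the Notch target Nrarp from 8.58 ± 0.391 to 6.27 ± 0.566 FPKM. Atoh1, the factor of secretory cells that Hes1 represses, rose from 16.9 ± 1.62 to 22.7 ± 1.43 FPKM. The mouse gene Olfm4 is itself a known Notch target, and it rose in the same libraries. Whether Notch signalling had a part in the change of Olfm4 was not tested.

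Beside Bmi1, Lrig1 and Hopx, 5 of 9 other reserve or quiescent stem cell markers were tested, of which 2 rose and 3 did not pass. Krt19 rose from 548 ± 30.5 to 720 ± 36.1 FPKM. Msi1, an RNA-binding protein, rose from 1.03 ± 0.135 to 1.81 ± 0.249 FPKM, a call lost without TNF 3 (limma adjusted p = 0.0516). Clu, which marks revival stem cells in mouse, had means of 6.61 ± 1.45 FPKM in Ctrl and 7.82 ± 0.702 FPKM in TNF and missed the threshold, but was called higher without Ctrl 2 (limma adjusted p = 0.0162). The median log2 change of the list was 0.23.

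Of the 6 tested among 7 relatives and targets of Lrig1, 2 fell, 2 rose and 2 did not pass, with a median log2 change of -0.11. The receptor Erbb3 fell from 44.2 ± 2.53 to 35.5 ± 0.445 FPKM, and Egfr rose from 7.04 ± 0.337 to 8.96 ± 0.481 FPKM. Erbb2 fell from 24.5 ± 1.05 to 21.3 ± 1.03 FPKM, but not without Ctrl 1, Ctrl 3, TNF 1 or TNF 2 (limma adjusted p 0.0681 to 0.103). Met rose from 13.9 ± 0.376 to 16.2 ± 1.01 FPKM, but not without Ctrl 1, Ctrl 2, TNF 1 or TNF 2 (limma adjusted p 0.0666 to 0.0867).

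Of 16 tested genes, the subunits of Polycomb repressive complex 1 and their target Cdkn2a, 2 rose, 1 fell and 13 did not pass. Of all tested genes 24.0% were called. The median log2 change of the list was -0.0047. Cbx2 rose from 2.69 ± 0.386 to 3.92 ± 0.344 FPKM, but not without TNF 2 or TNF 3 (limma adjusted p 0.0554 to 0.0600). Cbx7 rose from 5.53 ± 0.497 to 6.67 ± 0.227 FPKM, a call kept only without Ctrl 3 (otherwise limma adjusted p 0.0626 to 0.109), and Pcgf5 fell from 4.19 ± 0.0259 to 3.39 ± 0.234 FPKM, a call kept only without TNF 2 (otherwise 0.0571 to 0.0696). Pcgf1 was called higher without Ctrl 1 (limma adjusted p = 0.0493) and Cdkn2a lower without Ctrl 3 (limma adjusted p = 0.0210).

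Of 13 tested among 18 genes of RGM and BMP signalling, 2 fell, 1 rose and 10 did not pass, with a median log2 change of 0.028. The activin receptor Acvr2a fell from 16.6 ± 0.198 to 11.6 ± 0.281 FPKM (limma adjusted p = 0.000164), and neogenin, Neo1, to which Rgmb binds, from 22.0 ± 0.556 to 18.2 ± 0.241 FPKM. Smad5, which carries BMP signals, rose from 11.8 ± 0.345 to 14.02 ± 0.280 FPKM. Without Ctrl 2 the BMP target Id2 was also called higher (limma adjusted p = 0.0392).

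Of 18 genes of S phase and of the complex that Cdca7 joins, 1 rose, 2 fell and 15 did not pass, with a median log2 change of 0.019. The hemimethylated DNA reader Uhrf1 rose from 30.6 ± 1.73 to 36.9 ± 1.39 FPKM. The methyltransferase Dnmt1 fell from 33.4 ± 0.656 to 29.4 ± 0.364 FPKM, a call lost without Ctrl 1 (limma adjusted p = 0.0522). Cdca7l, the closest relative of Cdca7, fell from 9.65 ± 0.475 to 8.27 ± 0.359 FPKM, a call kept only without Ctrl 3 (otherwise limma adjusted p 0.0533 to 0.105). Hells itself, at 16.0 ± 0.496 and 17.4 ± 0.564 FPKM, did not pass (limma adjusted p = 0.129).

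Genes of mitosis gave 1 rise, 1 fall and 10 that did not pass among 12, with a median log2 change of -0.012. Bub1, a spindle checkpoint kinase, rose from 11.6 ± 0.153 to 14.4 ± 0.366 FPKM. Plk1 fell from 53.5 ± 2.94 to 46.9 ± 0.811 FPKM, a call kept only without Ctrl 2 (otherwise limma adjusted p 0.0590 to 0.0908), and Ccna2 was called lower without TNF 1 (limma adjusted p = 0.0328). The proliferation marker Mki67 was at 95.9, 91.9 and 95.2 FPKM in Ctrl and 103, 91.4 and 94.3 FPKM in TNF (limma adjusted p = 0.753). Its groups overlapped.

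Of 15 regenerative and fetal-like epithelium genes, 13 were in the table and 11 were tested, of which 7 rose, none fell and 4 did not pass, with a median log2 change of 0.42. Sprr1a, a cornified envelope protein, rose from 89.5 ± 18.3 to 209 ± 28.3 FPKM and Ly6a, the Sca-1 surface protein, from 111 ± 12.2 to 195 ± 17.3 FPKM. The interleukin-1 receptor antagonist Il1rn rose from 45.4 ± 4.24 to 68.2 ± 3.95 FPKM and the keratin Krt7 from 27.3 ± 1.67 to 36.9 ± 1.27 FPKM. A single fall was called without Ctrl 3 (Spp1, limma adjusted p = 0.0176) and without TNF 1 (Msln, limma adjusted p = 0.0173).

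Of the 10 relatives of Smoc2 and Olfm4 only 3 were tested, since the other 7 were below the filter. Sparcl1 rose from 4.12 ± 0.560 to 15.3 ± 0.810 FPKM (log2 change 1.68, limma adjusted p = 1.27e-05), with the glial markers named above, whose part was not tested. Sparc and Olfm1 did not pass, at 5.08 ± 2.06 and 6.79 ± 1.26 FPKM and at 0.895 ± 0.152 and 1.31 ± 0.151 FPKM.

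**Figure D4:**
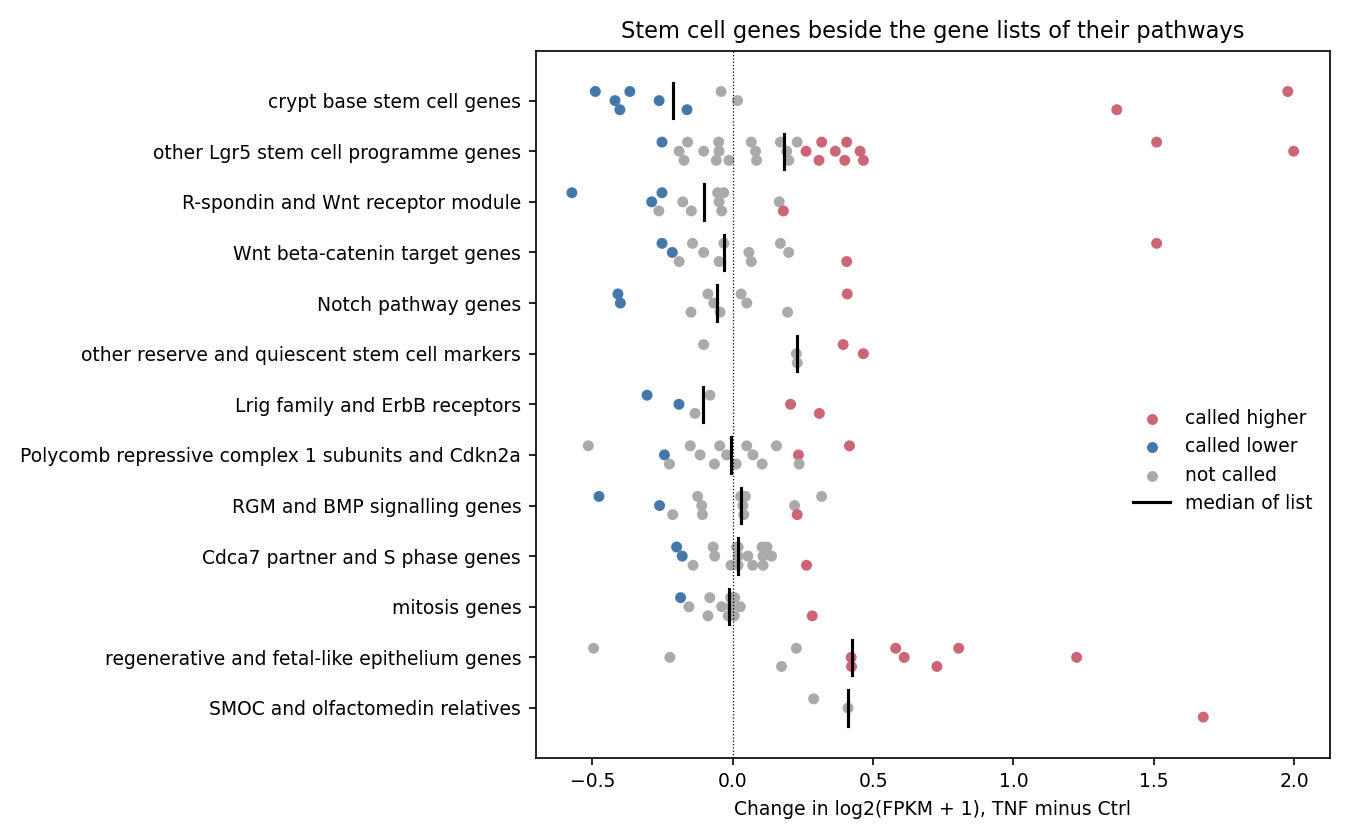
Change in log2(FPKM + 1), TNF minus Ctrl (horizontal axis), of the 10 crypt base stem cell genes (top row) and of the tested genes of 12 lists. Each point is 1 gene, coloured by its limma call, and the black bar is the median. The stem cell genes have a median of -0.21, the other Lgr5 programme genes 0.18 and the regenerative genes 0.42.

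The libraries held about 28100000 to 32200000 reads as estimated from the deposited values. All 6 epithelial markers were above 1 FPKM in every library. They summed to 2506 to 2714 FPKM in Ctrl and 2796 to 2985 FPKM in TNF. Krt8 rose from 1074 ± 75.2 to 1304 ± 62.8 FPKM and Krt18 from 468 ± 17.9 to 556 ± 22.9 FPKM. The others did not pass, among them Epcam, at 451 ± 15.6 and 410 ± 16.0 FPKM (limma adjusted p = 0.0866). Of 4 colon identity markers 3 were tested. Car1 and Cdx2 fell with TNF, and Cdx1 did not pass (limma adjusted p = 0.517). Hoxb13 was at most 0.553 FPKM in any library. Small intestine markers summed to 2.93 to 3.75 FPKM in Ctrl and 0.763 to 1.32 FPKM in TNF. Of these 7 markers only Sis was tested, which passed the filter only through Ctrl. It fell from 1.86 ± 0.238 to 0.254 ± 0.0996 FPKM, and all the others overlapped between groups. Markers of differentiated cells moved both ways. Of 6 goblet cell markers Fcgbp fell from 408 ± 21.6 to 267 ± 18.1 FPKM, Tff3 rose, and 4 did not pass, among them the mucin Muc2 (limma adjusted p = 0.625). Of 6 colonocyte markers the ion exchanger Slc26a3, from 41.3 ± 3.47 to 21.6 ± 1.55 FPKM, and the water channel Aqp8 fell, Guca2a, from 211 ± 11.5 to 333 ± 13.3 FPKM, and Ceacam20 rose, and 2 did not pass, among them the keratin Krt20 (limma adjusted p = 0.110). Of 6 deep crypt secretory and Paneth cell markers 3 rose, with Ang4 from 28.3 ± 2.64 to 203 ± 10.6 FPKM, and Reg4 fell from 1101 ± 38.3 to 748 ± 59.9 FPKM. Of 5 enteroendocrine markers 3 fell, with Gcg from 36.6 ± 2.99 to 15.2 ± 2.00 FPKM, and none rose. Tuft cell markers summed to at most 2.20 FPKM and endothelial markers to at most 0.799 FPKM in any library, and none of them was tested. The part of these cell types in the results for the stem cell genes was not tested. Of 9 leukocyte markers 2 were tested. Laptm5 rose from 0.817 ± 0.319 to 1.78 ± 0.190 FPKM (limma adjusted p = 0.0165), having passed the filter only through TNF, and Lyz2 was not called. Ptprc, the pan-leukocyte gene, was at 0.146 to 0.198 FPKM in Ctrl and 0.374 to 0.382 FPKM in TNF. Cd3e, at 0.0275 to 0.0761 and 0.398 to 0.595 FPKM, and Coro1a were also higher in every TNF library. Cd52, Adgre1, Csf1r and Cd79a overlapped between groups, and the part of leukocytes was not tested. The macrophage gene Lyz2 was low in Ctrl 1 (4.65 FPKM) and TNF 3 (2.72 FPKM) against 15.6 to 16.0 FPKM in the others. Without both of those libraries, an alternative chosen after seeing the data, Lgr4 and Lgr5 were still called lower and Ascl2 and Olfm4 higher, while Smoc2, Rgmb, Cdca7 and Bmi1 were not called (limma adjusted p 0.0536, 0.0758, 0.0585 and 0.154).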

How the data were processed

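RNA of 6 colon organoid samples, 3 Ctrl and 3 TNF, was sequenced. Per the submitters' processing notes, cutadapt (version 1.9), FastQC and the genome build GRCm38 were used; which aligner, counting program and annotation were used is not given in the sources used here. Normalized values in 1 table deposited by the authors were taken as FPKM: value times exonic length in kilobases summed to 959396 to 964319 per library, near the 1000000 that FPKM gives. Positions came from GENCODE M21 (29862 of 29940 gene identifiers found) and promoters from RefSeq (GRCm38.p6). Depth was estimated from the smaller of 2 common low values of a library, taken as 1 read (the larger was 2.0 times as high, which as 1 fragment would give a lower depth by that factor); 29.4% to 31.4% of low values lay within 0.05 of whole reads, so no count test was run, and precision is limited by read number in genes near the filter.

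The deposited FPKM values were analysed as log2(FPKM + 1) with limma (version 3.58.1, R 4.3.3), trended prior variance, group as the only term, two-sided, on genes averaging 1 FPKM or more. The procedure was tested on simulated data. Ratios within libraries were compared by exact permutation with scipy 1.17.1. The members and the 12 lists (166 genes) were chosen with earlier results of these data known. Named were all members, at most 4 called genes per list with the smallest p, the 3 nearest profiles to Lgr5, Ascl2 and Olfm4 (with 0.1 FPKM added), and Mki67, Krt20, Muc2, Ptprc, Epcam and Tnfrsf19; other genes were named after their values were seen. The alternatives were other pseudocounts, filters, scalings and prior variance, a replicate block and leaving out libraries. The replicate numbers were not taken as pairs, because the labels do not say that they mark a shared animal, batch or day. Same-numbered samples also did not deviate together (correlations -0.0043, -0.10 and 0.0053). Not reported here are 2 genes, left out of the marker lists and their sums.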

Additional observations from a re-analysis of the deposited data

How the results depend on the processing

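No called result changed sign; the uncalled estimate of Lrig1 went from 0.017 to -0.053 without Ctrl 2. Lgr4, Lgr5, Ascl2 and Olfm4 kept their calls under every alternative in which they were tested, and Lrig1 and Hopx stayed uncalled. The log2 changes ranged from -0.43 to -0.36 for Lgr5, from -0.41 to -0.32 for Lgr4, from 0.90 to 1.56 for Ascl2 and from 0.75 to 3.63 for Olfm4, the last 2 ranges set by the pseudocount. With a filter at a mean of 5 FPKM Olfm4 was not tested, leaving 1 member higher. With the replicate number as a block, Bmi1 was no longer called (log2 change -0.16, adjusted p = 0.0643), genes called fell to 2260, and no other member's call changed. Leaving out 1 library, Bmi1 ranged from -0.18 to -0.15 (adjusted p 0.0506 to 0.0875), and 910 to 1175 genes were called lower. Without both Ctrl 1 and TNF 3, chosen after seeing the data, 1413 genes were called, 817 higher and 596 lower, and 2 members were lower; the log2 changes of Smoc2, Rgmb, Cdca7 and Bmi1 were -0.46, -0.36, -0.23 and -0.17. This alternative has 2 samples a group; the cause of the lost calls was not tested. Without it, Smoc2, Rgmb and Cdca7 kept their calls under every setting. Depth limits Olfm4, which had 15 to 22 reads, or 8 to 11 fragments, in Ctrl.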
